A study of Mus musculus with 4 samples.

Results

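The proteasome genes described here are those whose symbols begin with Psma, Psmb, Psmc or Psmd and a digit, without the immunosubunit genes Psmb8, Psmb9 and Psmb10. The members were taken from probe sets annotated to a single gene symbol, and 37 of the 19938 genes on the array matched. They comprised 8 genes of the alpha ring, 8 of the beta ring, 6 of the ATPase ring, 3 of the other base subunits, 8 of the lid and 3 base assembly chaperones. The last was Psmc3ip, which matches the prefix but encodes a meiotic recombination factor and no proteasome subunit. It is kept in all counts of the 37 members.

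Plasmacytoid dendritic cells (pDCs), which produce large amounts of type I interferon, were sorted as mature cells from spleens of Flt3 KO mice and WT mice kept at steady state. The product of Flt3 is a receptor tyrosine kinase whose ligand promotes the development of dendritic cells. Each genotype had 2 samples given as biological replicates, each on its own whole-transcript GeneChip array. Age, sex and strain, the part of Flt3 that the allele lacks and whether a sample was 1 animal or a pool are not stated in the labels, so p-values measure the spread between these samples. On the log2 scale the Flt3 signal was 8.46 and 8.61 in Flt3 KO and 10.71 and 10.77 in WT pDCs, a difference of -2.21 (limma adjusted p = 7.43e-05).

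The proteasome degrades proteins tagged with ubiquitin and supplies most peptides shown on MHC class I. Its barrel-shaped core particle has outer alpha rings, which gate the entry, and inner beta rings, in which the products of Psmb5, Psmb6 and Psmb7 carry the proteolytic sites. A regulatory particle caps the core, with a base that holds the ring of ATPases, which unfold substrates, and a lid that removes ubiquitin. Immune cells can exchange the proteolytic subunits for the immunosubunits encoded by Psmb8, Psmb9 and Psmb10, and plasmacytoid dendritic cells, like other antigen-presenting cells, express these genes without infection.

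None of the 37 members passed the threshold, an adjusted p under 0.05 from limma with Benjamini-Hochberg adjustment over all genes, compared with 2.39% of all genes (1.08% higher and 1.31% lower in Flt3 KO). At an unadjusted limma p under 0.05 there were 6 members, Psmd10, Psmd7, Psmc2, Psmc1, Psmd5 and Psmb2, all lower in Flt3 KO pDCs. That is 16.2% of members, against 17.1% of all genes, of which 6.95% were higher and 10.1% lower in Flt3 KO. Replicate values of the genotypes did not overlap for 20 members, all lower in Flt3 KO, or 54.1% of members against 47.2% of all genes, where 21.9% were higher and 25.3% lower without overlap.

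The differences were small. The Flt3 KO minus WT difference of the members ran from -0.41 to 0.24 on the log2 scale, with a median of -0.082 and a median absolute difference of 0.084, against -0.0010 and 0.097 over all genes. Without WT replicate 2 the median of the members was -0.028. With 1 array left out in turn, 30 of the 37 differences moved by more than 1.5 times and 13 of these turned sign in at least 1 of the fits. The exceptions were Psmb2, Psmb6, Psmb7, Psmd4, Psmd5, Psmd7 and Psmd13. The limma standard error (SE) of a member had a median of 0.067. The 95% interval of the difference, not adjusted for the number of genes, lay wholly within 0.5 of 0 on the log2 scale for 34 of 37 members, that is, within a 1.41-fold change either way, and for 88.3% of all genes. It reached further for Psmd10, Psmc2 and Psma8.

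**Figure D1:**
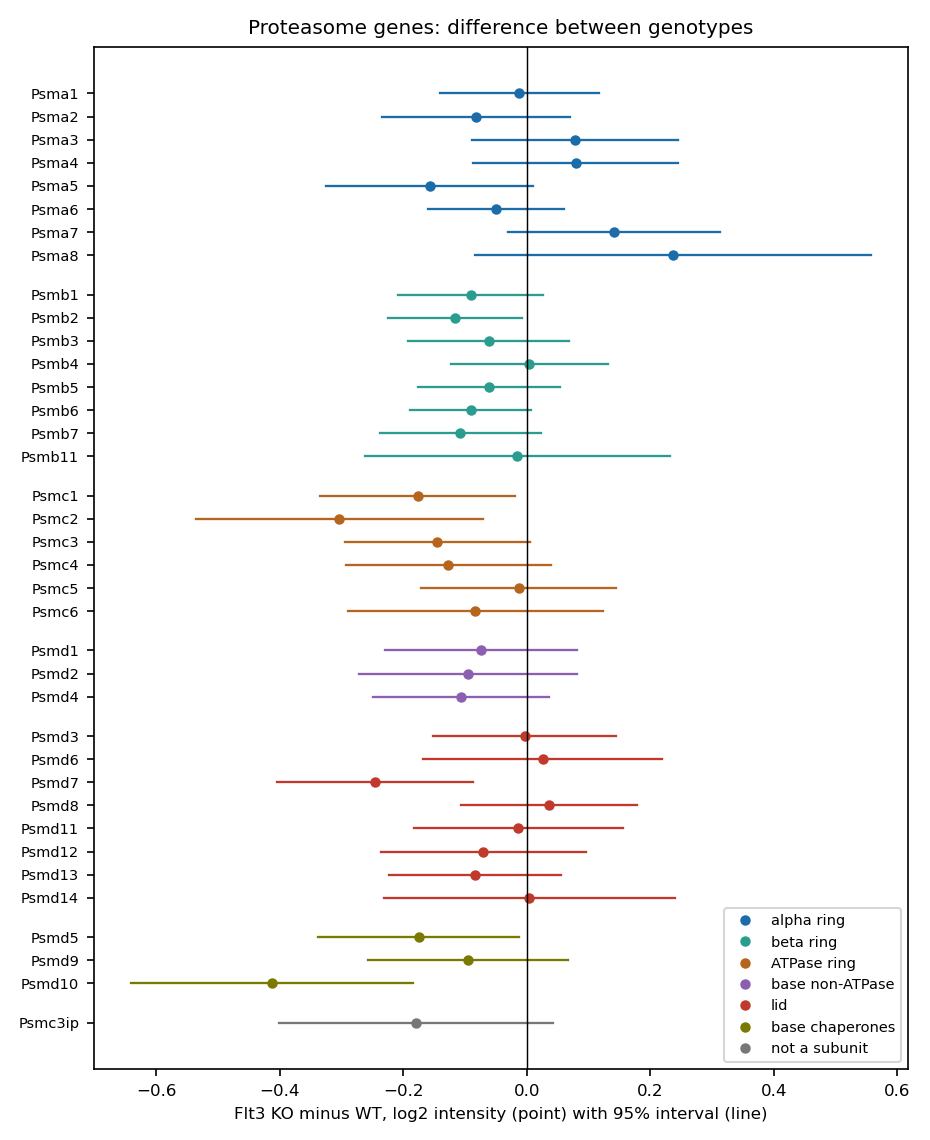
Differences of the 37 members, Flt3 KO minus WT, in log2 intensity on the horizontal axis, with the 95% interval from limma as a line (2 arrays per genotype). The points of 29 members lie left of 0, and the interval lies wholly left of 0 for 6 of them.

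In 29 of 37 members the difference was negative, whereas 50.3% of all genes had a negative difference. The share depends on how bright the genes are. Leaving aside Psma8 and Psmb11, which are known from testis and thymus, the 31 subunits of the core and regulatory particles had mean log2 intensities of 8.24 to 11.26. Among the 3364 genes of the whole array within that range, a background chosen after the data were seen, 64.9% had a negative difference and the median was -0.046. Of the 31 subunits 24 had a negative difference (77.4%), with a median of -0.074.

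Within the same range of intensity, 30.3% of genes had an unadjusted limma p under 0.05 and 6.42% an adjusted p under 0.05, compared with 12.9% and none of the 31 subunits. Genotypes were without overlap for 60.1% of those genes, 42.5% with Flt3 KO lower, compared with 16 of the 31 subunits (51.6%), all with Flt3 KO lower. An absolute difference of 0.25 or more was found in 12.7% of the genes in that range and in 1 of the 31 subunits, Psmc2. These shares describe the set, whose members were not tested as a group.

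**Figure D2:**
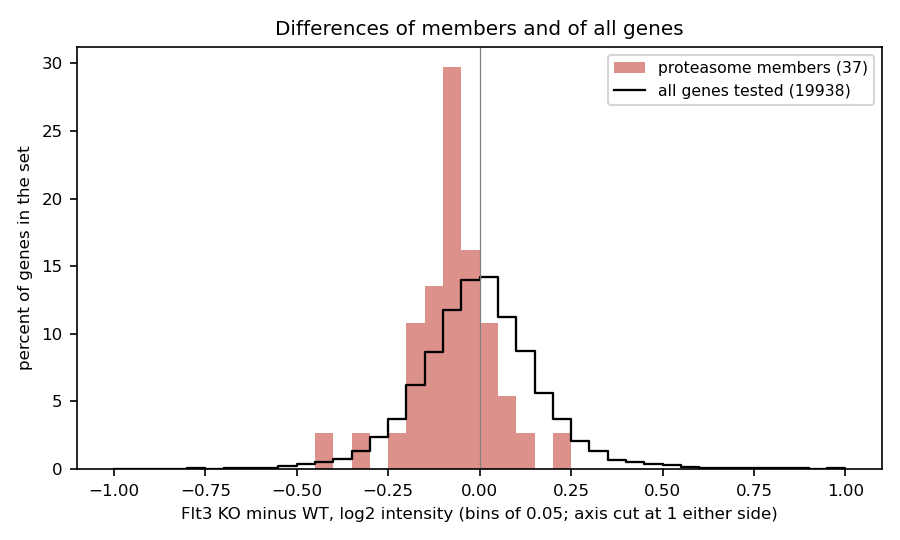
Flt3 KO minus WT differences in log2 intensity, in bins of 0.05, as the percent of the 37 members (red bars) and of all 19938 genes (black line); genes beyond 1 either way are not drawn. The members lie between -0.41 and 0.24, with most of them just left of 0.

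The scale of the arrays matters for shifts of this size. With each array centred on its median, the median of the members was -0.12 and 33 of 37 differences were negative. Centring also moved the median of all genes, from -0.0010 to -0.037. Under quantile normalization, which gives all arrays the same distribution, the median of the members was -0.039 and 25 of 37 were negative. The median of all genes was then -0.00092. No member passed the threshold in either case. In both genotypes fewer cells of a type and less RNA per cell cannot be told apart, since each array read RNA from a whole sort.

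The promoters of a few members are shown because factors known to act on proteasome genes bind the letters searched here. NRF1, the product of Nfe2l1, binds antioxidant response elements, whose core is TGACNNNGC, and NF-Y binds CCAAT. Psmd10 is shown as the member with the lowest difference, Psmb6 and Psmb9 as the pair whose arrays separated, and Psmb5 as a second proteolytic gene with the element. Sequences are RefSeq promoter windows of build GRCm38.p6, 250 bases before to 50 after the gene's start, read 5′ to 3′ on the gene's strand, with matches to either motif on either strand in capitals.
Psmd10 promoter, chrX:140956662-140956961, strand -: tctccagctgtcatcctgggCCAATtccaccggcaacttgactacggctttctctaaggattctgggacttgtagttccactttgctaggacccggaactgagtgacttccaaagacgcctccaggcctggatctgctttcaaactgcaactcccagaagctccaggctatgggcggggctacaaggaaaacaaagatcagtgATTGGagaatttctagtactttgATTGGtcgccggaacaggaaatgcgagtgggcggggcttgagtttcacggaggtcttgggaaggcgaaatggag
Psmb6 promoter, chr11:70525107-70525406, strand +: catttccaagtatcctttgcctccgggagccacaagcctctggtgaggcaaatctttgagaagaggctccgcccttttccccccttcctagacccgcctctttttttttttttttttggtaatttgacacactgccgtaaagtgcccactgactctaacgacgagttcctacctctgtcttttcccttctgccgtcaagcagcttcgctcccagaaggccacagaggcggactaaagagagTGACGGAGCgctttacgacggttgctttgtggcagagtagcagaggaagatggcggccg
Psmb9 promoter, chr17:34187281-34187580, strand -: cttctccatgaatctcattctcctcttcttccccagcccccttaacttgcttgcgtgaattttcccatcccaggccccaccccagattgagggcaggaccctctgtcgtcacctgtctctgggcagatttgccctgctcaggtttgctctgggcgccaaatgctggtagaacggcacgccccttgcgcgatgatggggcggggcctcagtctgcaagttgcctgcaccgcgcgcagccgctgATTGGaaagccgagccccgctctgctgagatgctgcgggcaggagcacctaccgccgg
Psmb5 promoter, chr14:54617946-54618245, strand -: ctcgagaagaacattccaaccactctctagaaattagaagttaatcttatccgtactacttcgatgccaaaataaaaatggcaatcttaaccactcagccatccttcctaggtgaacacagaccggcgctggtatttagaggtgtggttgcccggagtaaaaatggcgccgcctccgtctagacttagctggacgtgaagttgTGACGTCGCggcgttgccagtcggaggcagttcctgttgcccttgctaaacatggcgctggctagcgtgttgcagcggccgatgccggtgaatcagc

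Windows were found for 30 of the 37 members, 32 windows in all. The element core TGACNNNGC occurred in 5 of them (15.6%), in Psmb5, Psmb6, Psmc6, Psmd9 and Psmd12, compared with 12.4% of all 32851 windows of the same length. CCAAT occurred in 13 (40.6%), among them Psmd10 with 3 matches, compared with 37.4% of all windows. No member window held both motifs. Both shares were near those of all windows. The 5 genes with the element core had differences of -0.061, -0.091, -0.083, -0.095 and -0.070 in the order just given.

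The alpha ring was the subcomplex nearest to balance, with 4 of 8 genes positive and 4 negative and none with an unadjusted p under 0.05. Its median difference was 0.033, a value that turned negative with array centring (-0.0031) and with genes under a mean log2 of 6 left out (-0.012, without Psma8). Psma7 read 10.31 and 10.46 (log2) in Flt3 KO and 10.17 and 10.32 in WT pDCs, so that the lower Flt3 KO value lay just under the higher WT value. Its difference was 0.14 (SE 0.073, limma adjusted p = 0.38), and 0.066 to 0.22 with 1 array left out, lowest without WT replicate 1 and at 0.067 without Flt3 KO replicate 2. Psma5 lay at the other end, with 9.55 and 9.49 in Flt3 KO and 9.59 and 9.77 in WT, a difference of -0.16 (SE 0.071, limma adjusted p = 0.32), and its values did not overlap between genotypes. The difference of Psma5 was -0.067 without WT replicate 2 and -0.25 without WT replicate 1. The dimmer of the Psma5 probe sets gave -0.11.

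Psma3 was read by 3 probe sets, whose differences were 0.081, 0.081 and 0.078. The annotation lists the same 5 transcripts for all of them, so they are no separate support. The differences of Psma1, Psma2, Psma4 and Psma6 were -0.012, -0.082, 0.079 and -0.050. Psma8, which encodes an alpha subunit of the testis, was dim throughout, at 4.89 and 4.62 in Flt3 KO and 4.66 and 4.38 in WT. Its difference of 0.24 (SE 0.14, limma adjusted p = 0.43) was the highest of the members, on a signal below a log2 intensity of 6.

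All 7 alpha genes other than Psma8 were higher in WT replicate 2 than in WT replicate 1, against 49.9% of all genes. The gap between the replicates of a genotype had a median of 0.059 in Flt3 KO and 0.15 in WT for these genes. In all 7 the gap between the WT arrays was larger than the difference between genotypes. Without WT replicate 1 the median of the alpha ring was -0.044, and without WT replicate 2 it was 0.072. None of the 8 genes had a difference larger than both replicate gaps, as 35.3% of all genes did and 48.6% of genes in the range of intensity of the subunits.

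**Figure D3:**
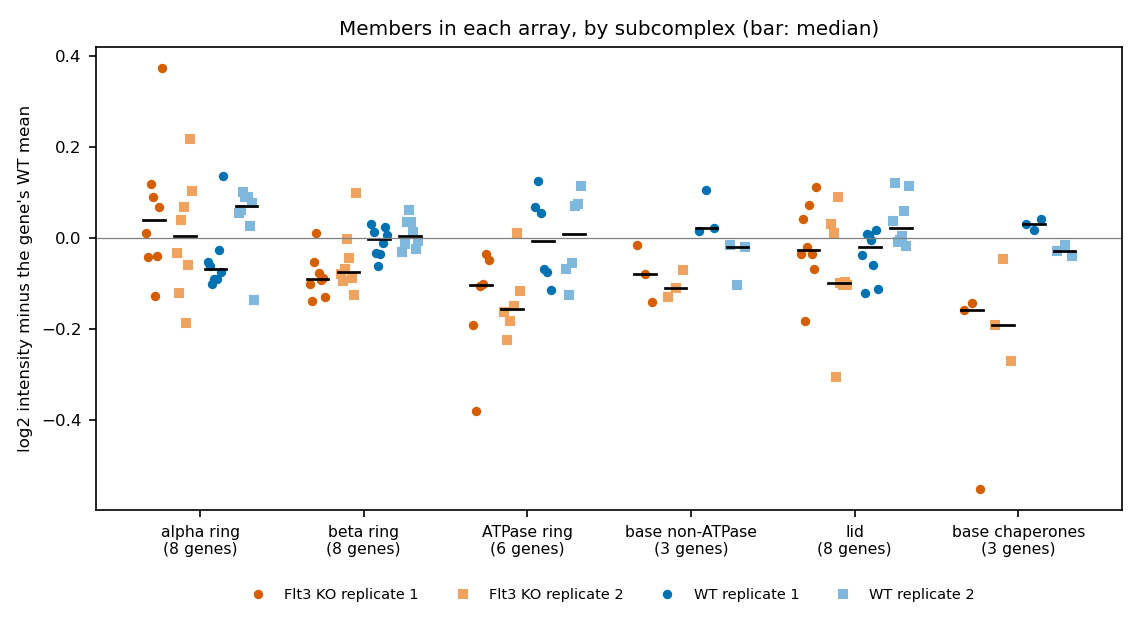
Log2 intensity of each member minus that gene's mean in WT, for each of the 4 arrays (Flt3 KO in orange, WT in blue, bars for the median of the subcomplex). The Flt3 KO medians of the ATPase ring, at -0.11 and -0.16, and of the base chaperones, at -0.16 and -0.19, lie below both WT medians. So do those of the beta ring and the other base subunits. In the lid the Flt3 KO medians are -0.027 and -0.099, the first only just below the lower WT median of -0.0205. The Flt3 KO medians of the alpha ring lie between the WT medians.

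The beta ring had 7 of 8 differences negative, a median of -0.076 and a range of -0.12 to 0.0039. The replicate gaps were small here, with a median of 0.028 in Flt3 KO and 0.055 in WT pDCs, and 6 of the 8 genes had values that did not overlap between genotypes, compared with 47.2% of all genes and 60.1% of genes in the range of intensity of the subunits. The 3 genes of the proteolytic subunits were among the 7. Psmb6, of the caspase-like site, had 11.21 and 11.22 in Flt3 KO and 11.29 and 11.32 in WT (difference -0.091, SE 0.042, limma adjusted p = 0.33). Psmb7, of the trypsin-like site, had 9.29 and 9.25 in Flt3 KO and 9.40 and 9.35 in WT (difference -0.11, SE 0.055, limma adjusted p = 0.38). Psmb5, of the chymotrypsin-like site, had 10.60 and 10.63 in Flt3 KO and 10.64 and 10.71 in WT (difference -0.061, SE 0.049, limma adjusted p = 0.58). Both Flt3 KO values lay under both WT values for each of these 3 genes, by margins of under 0.1.

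Among the structural beta genes Psmb2 had the lowest difference, with 10.57 and 10.62 in Flt3 KO and 10.72 and 10.70 in WT (-0.12, SE 0.046, unadjusted p = 0.039 and adjusted p = 0.26 in limma). Psmb4 had the highest, at 0.0039 (SE 0.054), and Psmb1 and Psmb3 had -0.091 and -0.062. The dimmer of the Psmb3 probe sets gave -0.16. Psmb11, which encodes the beta subunit of the thymus, was dim at 5.57 and 5.79 in Flt3 KO and 5.70 and 5.69 in WT. Psma5, Psmb5, Psmb6 and Psmb7 have pseudogene copies named in the RefSeq gene table, and shared probe signal from such copies was not tested.

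The lowest differences among the subunits were those of Psmc2, Psmd7 and Psmc1, all of the regulatory particle. All 6 ATPase genes had a negative difference, with a median of -0.14, and in 4 of them (66.7%) the genotypes did not overlap, near the 60.1% of genes in the range of intensity of the subunits. Psmc2 stood lowest, with 8.11 and 8.27 in Flt3 KO and 8.62 and 8.37 in WT pDCs. Its difference was -0.30 (SE 0.099, 95% interval -0.54 to -0.071), with an unadjusted p of 0.017 and an adjusted p of 0.18 in limma. The gap between its WT replicates was 0.25, and the difference was -0.18 without WT replicate 1 and -0.43 without WT replicate 2.

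Psmc1 had 8.72 and 8.75 in Flt3 KO and 8.98 and 8.84 in WT (difference -0.18, SE 0.067, limma adjusted p = 0.25), and a difference of -0.11 without WT replicate 1. Its second probe set, which reads the same listed transcripts, gave a difference of -0.011. Psmc3, Psmc4 and Psmc6 had differences of -0.14, -0.13 and -0.083. Psmc5 had the highest of the ring, at -0.013 (SE 0.067), with a sign that turned under quantile normalization (0.020). Differences over both replicate gaps were found in 3 of the 6 ATPase genes, against 48.6% of genes in the range of intensity of the subunits.

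The other base subunits, which bind ubiquitin and its carriers or hold the base together, all had negative differences, with a median of -0.095. Psmd4, an intrinsic ubiquitin receptor, had 8.68 and 8.75 in Flt3 KO and 8.84 and 8.80 in WT (difference -0.11, SE 0.061, limma adjusted p = 0.43), with no overlap. Psmd2 had -0.095 and Psmd1 -0.074, and a second probe set of Psmd2 gave -0.048.

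The lid showed no common direction, with 3 of 8 differences positive and a median of -0.0084, which was 0.033 under quantile normalization. Psmd7, a partner of the deubiquitinase in the lid, was its exception. It had 8.48 and 8.35 in Flt3 KO and 8.67 and 8.65 in WT, well separated, with a difference of -0.25 (SE 0.067, 95% interval -0.40 to -0.087), an unadjusted p of 0.0078 and an adjusted p of 0.13 in limma. Psmd14, the deubiquitinase of the lid, had 8.84 and 8.63 in Flt3 KO and 8.62 and 8.84 in WT, the same span in both genotypes, and a difference of 0.0044 (SE 0.10, 95% interval -0.23 to 0.24). Psmd8 had the highest difference of the lid, 0.036 (SE 0.060). Psmd6, Psmd3, Psmd11, Psmd12 and Psmd13 lay between -0.084 and 0.026. Without Flt3 KO replicate 1 the median of the lid was -0.099.

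The base assembly chaperones help the ATPase ring to form and leave the finished particle. All 3 had values that did not overlap between genotypes, with Flt3 KO lower. Values did not overlap, in either direction, for 47.2% of all genes and 60.1% of genes in the range of intensity of the subunits. Psmd5 and Psmd9 lay below that range. The median difference of the 3 chaperone genes was -0.17. Psmd10, which encodes gankyrin, had the lowest difference of all 37 members. Its log2 intensities were 8.16 and 8.44 in Flt3 KO and 8.75 and 8.67 in WT pDCs, a difference of -0.41 (SE 0.097, 95% interval -0.64 to -0.18) that puts the WT level at 1.33 times the Flt3 KO level. Both Flt3 KO arrays lay below both WT arrays, and the gap between the Flt3 KO replicates was 0.28.

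Psmd10 had an unadjusted p of 0.0036 and an adjusted p of 0.090 in limma. It passed with an adjusted p of 0.042 where genes under a mean log2 of 6 were left out, and then was the only member to pass. Over the other alternatives with all arrays kept the adjusted p ran from 0.052 to 0.18. The difference was -0.27 without Flt3 KO replicate 1, where it was more than 1.5 times smaller, and -0.55 without Flt3 KO replicate 2.

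Psmd10 lies on the X chromosome, where 742 genes had a median difference of -0.0091. Xist, the RNA of the inactive X, had 4.60 and 4.34 in Flt3 KO and 4.59 and 4.52 in WT, and the Y-linked gene Kdm5d had 7.66 and 7.62 in Flt3 KO and 7.76 and 7.75 in WT. Xist overlapped between genotypes, while Kdm5d did not (difference -0.12, SE 0.067). Of the other Y-linked genes read, Eif2s3y and Uty did not overlap either, with differences of 0.10 and -0.090. The adjusted p of these 4 genes in limma was 0.76 for Xist, 0.41 for Kdm5d, 0.50 for Eif2s3y and 0.58 for Uty. Their part in the Psmd10 value was not tested. Atg4a, the next gene along, which encodes an autophagy protease and is named here after its values were seen, had 7.36 and 7.43 in Flt3 KO and 7.68 and 7.54 in WT, a difference of -0.21 (SE 0.079, limma adjusted p = 0.24).

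Psmd5 had 7.51 and 7.48 in Flt3 KO and 7.70 and 7.64 in WT (difference -0.17, SE 0.069, limma adjusted p = 0.26), and Psmd9 had 7.94 and 8.04 in Flt3 KO and 8.10 and 8.07 in WT (difference -0.095, SE 0.069, limma adjusted p = 0.54). Psmc3ip, no subunit, had 5.96 and 5.84 in Flt3 KO and 6.02 and 6.14 in WT (difference -0.18, SE 0.094, limma adjusted p = 0.39).

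Among the immunosubunits, which are not counted as members, 1 of 3 passed the threshold. Of all genes 2.39% passed, and 6.42% of those in the range of intensity of the subunits. Psmb9, which encodes the immunosubunit that takes the place of the Psmb6 product, had 10.62 and 10.68 in Flt3 KO and 10.88 and 10.95 in WT pDCs, with no overlap. It fell by 0.27 (SE 0.050, limma adjusted p = 0.048), a WT level 1.20 times that in Flt3 KO. The adjusted p in limma lay at the edge of the threshold. It rose to 0.20 without the intensity trend, to 0.097 with all probe sets tested together and to 0.054 with the replicate number as a block. Under the other alternatives with all arrays kept it ran from 0.021, with dim genes left out, to 0.0498, with a constant added. With a single array left out the difference of Psmb9 was -0.30 to -0.23. Psmb8, with 10.27 and 10.22 in Flt3 KO and 10.21 and 10.44 in WT, overlapped between genotypes (difference -0.084, SE 0.077, limma adjusted p = 0.64). Psmb10, with 10.31 and 10.45 in Flt3 KO and 10.37 and 10.50 in WT, overlapped too (difference -0.055, SE 0.068, limma adjusted p = 0.75).

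A difference between an immunosubunit gene and the gene of the subunit it replaces, taken within an array, is free of the array's scale, though its size depends on the probes. Psmb9 minus Psmb6 was -0.59 and -0.54 in Flt3 KO and -0.41 and -0.37 in WT pDCs, lower in both Flt3 KO arrays by -0.18 on average. An exact two-sided permutation test over the samples gave p = 0.3333, the smallest that 2 arrays against 2 allow. No pair could therefore fall under 0.05 in this test, before or after Benjamini-Hochberg adjustment over the 3 pairs. Psmb8 minus Psmb5 differed by -0.022 (exact permutation p = 1) and Psmb10 minus Psmb7 by 0.053 (exact permutation p = 0.6667), both with overlapping arrays.

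**Figure D4:**
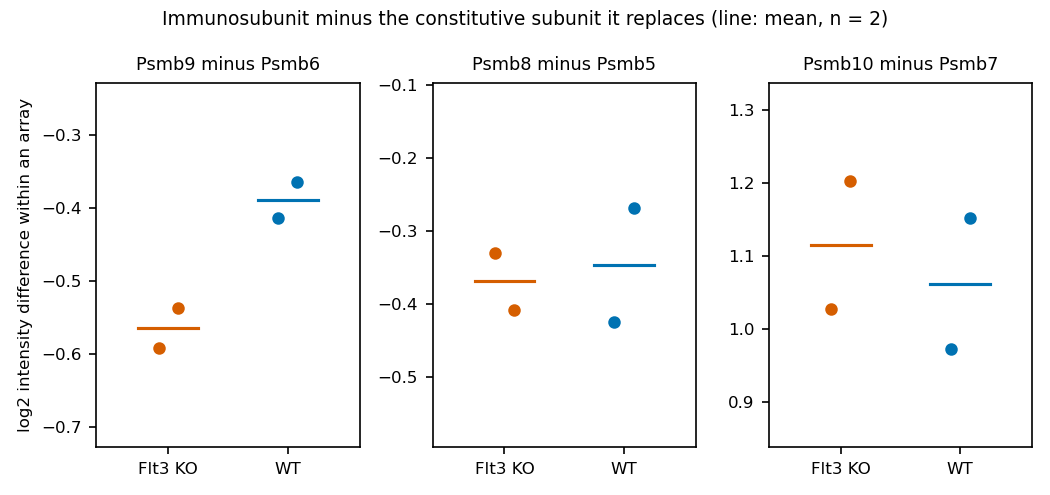
Log2 intensity of each immunosubunit gene minus that of the constitutive subunit gene it replaces, within each array (points) and as the mean of 2 arrays (lines), on vertical axes of equal span. The Psmb9 minus Psmb6 values of the Flt3 KO arrays lie below those of the WT arrays, and the other pairs overlap.

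Genes that serve the proteasome were likewise close to 0. Among 35 measured in 5 lists none passed the threshold in limma, against 2.39% of all genes. An unadjusted limma p under 0.05 was found for 3 of the 35 (8.57%), against 17.1% of all genes. The activators and the inhibitor were all slightly negative (median -0.057 over 5). Psme1 and Psme2, whose products form the interferon-inducible activator ring, had -0.057 and -0.063, the activator gene Psme3 had -0.010, and Psmf1, of the inhibitor PI31, had -0.15 (SE 0.073, limma adjusted p = 0.36). The genes for assembly of the core particle were also all negative, with a median of -0.14 over 5 of 6 listed. Psmg4 had -0.17 (SE 0.068, limma adjusted p = 0.27), Psmg2 -0.099 and Pomp, the maturation factor of the core, -0.15 (SE 0.067, limma adjusted p = 0.31). Psmg2 was at -0.022 without Flt3 KO replicate 1 and -0.030 without WT replicate 1, Psmg4 at -0.098 without Flt3 KO replicate 1, and Pomp at -0.061 without WT replicate 2.

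Other subunits, deubiquitinases and shuttle factors of the proteasome had a median of -0.052 over 14 of 16 listed. Ufd1, a partner of the unfoldase VCP, had the lowest difference, with 9.18 and 9.20 in Flt3 KO and 9.42 and 9.42 in WT (-0.23, SE 0.053, limma adjusted p = 0.089), and it passed where dim genes were left out (adjusted p = 0.045). Zfand5, a ubiquitin-binding activator of the proteasome, had the highest, with 9.89 and 9.87 in Flt3 KO and 9.55 and 9.74 in WT (0.23, SE 0.072, limma adjusted p = 0.17), and a difference of 0.13 without WT replicate 1. Of the ubiquitin and E1 genes 1 of 6 had a probe set with a single symbol, Uba6, at 0.10. The regulators had a median of 0.022 over 10 of 11, with Nfe2l1, the gene of the transcription factor that raises proteasome genes when proteasomes are inhibited, at 0.021 (SE 0.065), Mafg at 0.17 and Ngly1 at -0.15. Leaving out WT replicate 1 put Mafg at 0.0087, and leaving out WT replicate 2 put it at 0.32. Ngly1 was at -0.054 when Flt3 KO replicate 2 was left out and at -0.25 when replicate 1 of that genotype was.

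The members lie on 16 chromosomes. The most, 7, lie on chromosome 11, with a median difference of -0.062. In gene order Psmb5 and Psmb11 are direct neighbours, and Psmb9 and Psmb8 have 1 protein-coding gene between them.

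The cells behind the arrays carried pDC markers, with 10 of 12 listed measured, all above a mean log2 of 8. These markers summed to an intensity of 32742 to 32815 in Flt3 KO and 37665 to 38048 in WT pDCs, and 6 of them fell. The median difference of all 10 measured was -0.28. Monocyte and macrophage markers summed to 5896 and 7589 in Flt3 KO and 4806 to 5205 in WT; 6 of 16 rose and none fell. Their part in the Psmb9 and Psmd10 values was not tested. In the lists of B cell, T cell and neutrophil markers none of 18 measured passed. An unadjusted limma p under 0.05 was found for 6 of the 18 (33.3%), 3 higher and 3 lower in Flt3 KO, against 17.1% of all genes. Of the 5 T cell markers 2 were among the higher and 1 among the lower. Plasma cell markers split into 2 that rose and 2 that fell of 6, and 1 of 6 NK cell markers, Klrk1, rose. Of 9 conventional dendritic cell markers only Flt3 fell, the gene knocked out by design, so its fall is no measure of these cells. None of 2 erythroid genes passed.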

How the data were processed

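Per the labels' protocols, spleens were digested with Collagenase B and DNAse 1, and RNA was amplified with an Ambion WT Expression kit and labelled with biotin. What was deposited is a processed intensity by the authors for each of 30177 probe sets and 4 arrays, on a linear scale. How background, summarisation and scaling were done is not stated in the labels. Median intensity was 56.2 to 57.2 in Flt3 KO and 55.1 to 55.3 in WT arrays.

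Gene names came from the platform annotation; 21789 probe sets had a single symbol, and the brightest was kept for each of 19938 genes. All 37 members matched RefSeq by gene ID. Log2 values, with no constant or filter, were fitted with limma 3.58.1 in R 4.3.3 (lmFit, eBayes with an intensity trend) and checked on simulated data. Markers and lists were chosen, like the members, with earlier results of these data known. Genes named are those past the threshold, the highest and lowest of each list and a fixed few. Alternatives changed scaling, filter, added constant, variance model, probe sets, replicate block and arrays. For arrays their number limits the precision.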

Additional observations from a re-analysis of the deposited data

How the results depend on the processing

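Scaling, filters, an added constant, variance models, choice of probe sets and single arrays left out were varied, and no member passed under any of them except Psmd10 with dim genes left out, where 1 member passed. The count of all genes that passed was 476, and 748 with dim genes left out (fewer genes tested), 108 without the intensity trend, 219 with all probe sets tested and 0 to 54 with an array left out. With all arrays kept, the members at an unadjusted limma p under 0.05 ran from 3 of 37 without the intensity trend to 10 with array centring. In the same fits 3136 and 3761 of all 19938 genes had such a p.

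Under quantile normalization the medians were -0.039 (all members), -0.058 (beta ring), -0.093 (ATPase ring), -0.062 (other base subunits) and -0.13 (base chaperones). With array centring they were -0.12, -0.11, -0.17, -0.13 and -0.21 in that order. The median of all genes was -0.00092 under quantile normalization and -0.037 with centring. The beta ring was at -0.091 with dim genes left out (without Psmb11) or probe sets averaged. With an array left out the medians ran from -0.095 to -0.028 (all members), -0.044 to 0.072 (alpha ring), -0.091 to -0.053 (beta ring), -0.16 to -0.11 (ATPase ring), -0.13 to -0.058 (other base subunits), -0.099 to 0.010 (lid) and -0.20 to -0.15 (base chaperones).

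Signs turned for members near 0: under quantile normalization Psma1 (0.025), Psmc5 (0.020), Psmd11 (0.022) and Psmd3 (0.043), and Psme3 (0.028); with centring Psmb4 (-0.032), Psmd14 (-0.032), Psmd6 (-0.011) and Psmd8 (-0.00076), and Nfe2l1 (-0.015). The cause was not tested. With an array left out the ranges were -0.066 to 0.042 for Psma1, -0.023 to 0.18 for Psma3, -0.011 to 0.17 for Psma4, -0.13 to 0.099 for Psmb11, -0.058 to 0.065 for Psmb4, -0.088 to 0.062 for Psmc5, -0.20 to 0.032 for Psmc6, -0.099 to 0.072 for Psmd11, -0.11 to 0.12 for Psmd14, -0.20 to 0.0091 for Psmd2, -0.040 to 0.034 for Psmd3, -0.096 to 0.15 for Psmd6, -0.019 to 0.091 for Psmd8, -0.20 to 0.030 for Psmb8, -0.12 to 0.013 for Psmb10, -0.045 to 0.024 for Psme3, -0.045 to 0.087 for Nfe2l1 and -0.15 to 0.027 for Psme2. Flt3 kept a difference of -2.24 to -2.17 in the arrays-out fits without a WT replicate, but its adjusted p was 0.063 and 0.074.

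The labels number the replicates 1 and 2 in both genotypes. Deviations of same-numbered arrays correlated with r = -0.017 over all genes, so the numbers were not taken as pairs. With the replicate block 375 genes and no member passed in limma, and the Psmb9 adjusted p was 0.054.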
